A study of Homo sapiens with 9 samples.

Results

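SNAI1 and 7 genes of epithelial and mesenchymal state (CDH1, VIM, ZEB1, MMP14, GRHL2, ESRP1 and ESRP2) were followed in HT29 cells, a human colorectal adenocarcinoma line. They were picked by gene symbol, as genes of this biology and with earlier results of these data known, and make up 8 genes beside the 11664 gene names found in any of 3 deposited tables. The RNA of 9 libraries was measured, 3 per group. CRC-MPS CM cells were given conditioned medium (CM) for 24 h, from a colorectal cancer microphysiological system in which whole epiploic adipose tissue and HT29-GFP cells lie between sheets of adipose stromal cells, and which the labels call only CM of adipose tissue. ESC CM cells were given, also for 24 h, the CM of adipose stromal cells alone. By the labels, control cells were kept without serum for 24 h and received no CM. The study's methods also have cancer cells starved of serum before treatments, without naming groups, and the CRC-MPS CM diluted with serum-free medium. The study gives the adipose tissue behind this CRC-MPS CM as that of obese patients. By the study's methods the cultures that made both CM had serum, which the control medium lacked, so CM and serum cannot be told apart in either comparison with control. The CRC-MPS held cancer cells as well as adipose tissue, so their parts in the comparison of both CM cannot be told apart either. The labels number the libraries of a group as biological replicates, and in both CM groups they number the CM as well. They do not say from how many tissue donors the CM came. Whether the spread between libraries includes that of donors or CM batches, beside that of the HT29 cultures, is therefore unknown.

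Epithelial cells are held together by E-cadherin, the product of CDH1. In epithelial-mesenchymal transition (EMT) the zinc finger repressors Snail (SNAI1) and ZEB1 bind E-box sequences at CDH1 and lower its transcription, while mesenchymal genes such as VIM, an intermediate filament, are switched on. GRHL2, a grainyhead-like transcription factor, and ESRP1 and ESRP2, splicing regulators that favour epithelial isoforms, sustain the epithelial state. MMP14 is a membrane-bound metalloproteinase that cleaves collagen and activates the secreted protease MMP2. Snail is also controlled at the level of its protein, which the RNA values do not report on.

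Every table held only genes with p under 0.05 in the authors' own test, so each listed gene had already been selected on the same libraries, and a gene that is not listed has no value there. Of the 8 genes, 5 were listed in at least 1 table and 3 (VIM, GRHL2 and ESRP2) in none. SNAI1 was listed in all 3 tables. CDH1 and MMP14 were listed in both tables with control cells and not in the table of CRC-MPS CM against ESC CM. ESRP1 was listed in both tables that hold ESC CM cells, and ZEB1 only in the table of ESC CM with control. Thus 2 of the 8 genes had values in the table of both CM, 3 in that of CRC-MPS CM with control and 5 in that of ESC CM with control. Absence from a table does not show that a gene was unchanged or not expressed.

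In the GENCODE 29 annotation of hg38, SNAI1 (ENSG00000124216.3) lies on chromosome 20 from 49982999 to 49988886 and overlaps no other gene. MMP14 (ENSG00000157227.12) lies on chromosome 14 from 22836557 to 22849027, also without an overlapping gene. CDH1 (ENSG00000039068.18) lies on chromosome 16 from 68737225 to 68835548, and its exons overlap those of the antisense gene AC099314.1. ZEB1 (ENSG00000148516.21) lies on chromosome 10 from 31318495 to 31529814 and shares exonic sequence with the antisense gene ZEB1-AS1. The sources used here do not say whether the counting used the strand, so reads of these pairs may not have been separated.

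RefSeq promoter windows (GRCh38.p14, 250 bases before to 50 after a start) were at hand for 3 of the 8 genes, VIM, ZEB1 and MMP14. The MMP14 window is shown because MMP14 had the largest difference from control among the listed genes of the 8. Its part upstream of the annotated gene, chr14:22836335-22836556 on the plus strand, reads 5′ to 3′ as follows, with capitals marking the matches to CANNTG (the general E-box) and to GGGCGG (a GC box).
MMP14: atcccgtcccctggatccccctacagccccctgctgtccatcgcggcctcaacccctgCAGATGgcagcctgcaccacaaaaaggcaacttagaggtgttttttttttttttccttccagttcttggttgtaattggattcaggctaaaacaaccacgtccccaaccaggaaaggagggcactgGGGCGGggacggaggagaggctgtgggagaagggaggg
The E-box match, CAGATG, begins 192 bases before the RefSeq start and the GC box 66 bases before it. The letters that Snail is best known to bind, CAGGTG or CACCTG, had 0 matches in this window, against a match in 20.6% of 35116 RefSeq windows of the same length. CANNTG, which also takes in CAGGTG and CACCTG, had a match in 68.7% of them, and GGGCGG or its reverse complement CCGCCC in 45%. The VIM window held 0 matches to CANNTG, and 2 of 7 ZEB1 windows held CAGGTG or CACCTG. These matches describe letters in a window and not binding.

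The levels are TPM, a share of all transcripts that is scaled for transcript length and so can be set side by side between genes. Levels of the same library in different tables differed by a median of 0.04506% to 0.5671%. CDH1 and ESRP1 stood far above the others, and the smallest values were those of ZEB1. With CRC-MPS CM the order was CDH1 (131.8 TPM), ESRP1 (125.3 TPM), SNAI1 (5.089 TPM) and MMP14 (0.8746 TPM), where the libraries of CDH1 and ESRP1 overlapped. With ESC CM the order was CDH1 (126.4 TPM), ESRP1 (111.8 TPM), SNAI1 (1.321 TPM), MMP14 (1.239 TPM) and ZEB1 (0.2932 TPM), and the ranges of CDH1 and ESRP1, as well as those of SNAI1 and MMP14, overlapped. In control cells CDH1 (230.3 TPM) was followed by ESRP1 (126.4 TPM), MMP14 (5.458 TPM), SNAI1 (2.219 TPM) and ZEB1 (0.4637 TPM), with no overlap between neighbours. SNAI1 thus stood above MMP14 in all 3 CRC-MPS CM libraries and below it in all 3 control libraries.

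**Figure D1:**
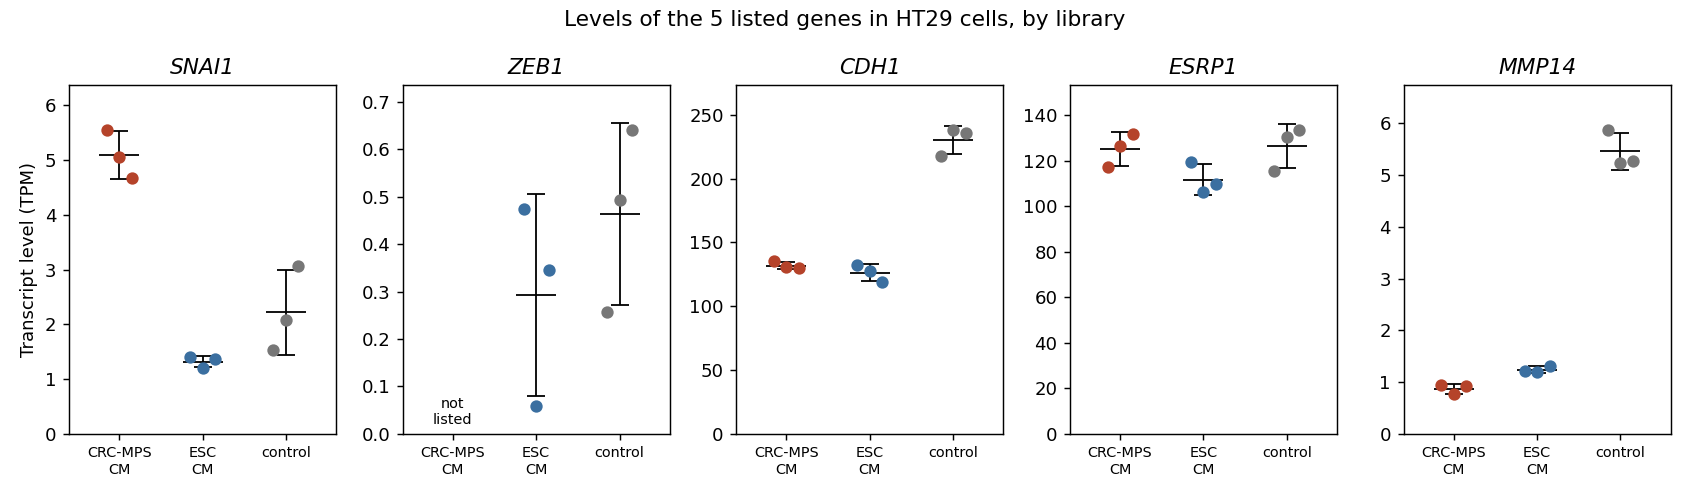
Levels in TPM (vertical axes, from 0 and scaled per gene) of the 5 listed genes in the 9 libraries. Points are libraries, horizontal lines are means and bars are 1 SD of n = 3. SNAI1 lies at 4.671 to 5.544 TPM with CRC-MPS CM, above every ESC CM and control library, while CDH1 and MMP14 lie below control with both CM.

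CRC-MPS CM was compared with ESC CM to ask what the complete tissue system added to stromal cells alone. SNAI1, the Snail repressor, rose with CRC-MPS CM to 3.85 times the ESC CM mean, and ESRP1 was not called. In the table of this comparison SNAI1 had 5.542, 5.035 and 4.671 TPM with CRC-MPS CM, against 1.398, 1.198 and 1.361 TPM with ESC CM. All 3 CRC-MPS CM libraries were above all 3 ESC CM libraries. In this preselected table the groups did not overlap, in either direction, for 63.6% of the genes. The means were 5.08 ± 0.438 TPM and 1.32 ± 0.107 TPM (SD, n = 3 each), and the difference of log2(TPM + 1) was 1.39 ± 0.10 (SE, 95% interval 1.16 to 1.62, limma adjusted p = 0.00221). A gene was called at adjusted p under 0.05 and a fold over 1.5 on this scale, which understates changes of low genes. Of the 8 genes, 1 was called, against 1.41% of all 2835 listed genes (1.06% higher and 0.353% lower). By size of the log2 difference SNAI1 was in place 9 of the 2835 and by p in place 2. Its level remained low in rank: 12.8% of the listed genes had a lower mean in CRC-MPS CM cells and 5.82% in ESC CM cells. The authors' mean normalized count of SNAI1 over these 6 libraries was 93.6, against a median of 1457 over the table.

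ESRP1 (ENSG00000104413.16) lies on chromosome 8 from 94641074 to 94707466, where no exon of another gene overlaps its own. It was the other listed gene of the 8 in this comparison and had 117.2, 126.7 and 132 TPM with CRC-MPS CM, against 118.9, 106.3 and 109.7 TPM with ESC CM. These libraries overlapped, and the log2 difference of 0.17 ± 0.07 (SE, 95% interval 0.01 to 0.32) was not called (limma adjusted p = 0.493). CDH1 and MMP14 have no row in this table, which holds only genes with p under 0.05 in the authors' test. Taken from the tables with control cells, CDH1 had 135.2, 130.5 and 129.8 TPM with CRC-MPS CM and 132.6, 127.5 and 119.1 TPM with ESC CM, which overlap. MMP14 had 0.9413, 0.764 and 0.9185 TPM with CRC-MPS CM and 1.216, 1.191 and 1.311 TPM with ESC CM, without overlap. The values of CDH1 and MMP14 were set across tables, and no test was made between both CM. The lack of overlap for MMP14 is therefore not read as a difference.

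In 9 lists of genes related to SNAI1, 1 gene was called between both CM, where 1.41% of all 2835 listed genes were called. With so few genes listed, the absence of other calls is not read as a result about the lists. Among 27 mesenchymal markers 4 were listed and 1 was called, TNC, which codes for the matrix glycoprotein tenascin-C. TNC had 5.576, 5.492 and 4.786 TPM with CRC-MPS CM, against 1.682, 1.941 and 1.45 TPM with ESC CM. It rose 3.12-fold, with a log2 difference of 1.23 ± 0.11 (SE, limma adjusted p = 0.00526). No gene was called among 15 other EMT transcription factors (1 listed), 15 epithelial transcription factors (5 listed), 20 genes of cadherin adhesion (4 listed) or 14 epithelial proteases, polarity and trafficking genes (5 listed). The same held for 24 metalloproteinases and inhibitors (6 listed), 27 genes of Snail turnover and corepression (5 listed), 13 splicing factors and targets (4 listed) and 19 genes of TGF-beta signaling and other regulators of SNAI1 (7 listed). Medians of the listed members ran from -0.23 in the epithelial transcription factors to 0.57 in the mesenchymal markers, against 0.15 over all listed genes. These medians rest on few genes. Among the epithelial transcription factors KLF4 was higher, with a log2 difference of 0.83, and the other listed ones were lower. SOX4, the only listed gene of the other EMT transcription factors, stood at -0.22. Of the marker lists of other cells, 0 of 7 adipocyte, 0 of 9 stromal, 0 of 7 leukocyte and 0 of 5 endothelial genes were listed in this table, and of 8 cycling genes only MKI67, which was not called.

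CRC-MPS CM was next compared with control. SNAI1 rose, while CDH1 and MMP14 fell, and the differences differed in size: SNAI1 stood at 2.29 times, CDH1 at 0.571 times and MMP14 at 0.160 times the control mean. All 3 listed genes of the 8 were called, 1 higher and 2 lower. The background is high, since 40.6% of the 10019 listed genes were called, 20.4% higher and 20.2% lower.

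SNAI1 had 5.546, 5.071 and 4.671 TPM with CRC-MPS CM, against 1.532, 2.073 and 3.063 TPM in control cells. The groups did not overlap, which was so for 89.4% of listed genes, but the control libraries were spread widely, with a highest value 2.004 times the lowest. Its coefficient of variation was 8.599% for CRC-MPS CM, 8.155% for ESC CM and 35.03% in control cells. The means were 5.10 ± 0.438 TPM and 2.22 ± 0.776 TPM (SD, n = 3 each), and the log2 difference was 0.94 ± 0.17 (SE, 95% interval 0.57 to 1.32, limma adjusted p = 0.00152). With a pseudocount of 5 TPM in place of 1 the difference was 0.49, under the fold required, and SNAI1 was no longer called.

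CDH1 had 135.2, 130.5 and 129.8 TPM with CRC-MPS CM, against 218.4, 238.1 and 235.6 TPM in control cells. All libraries with CM were lower, and the means were 132 ± 2.95 TPM and 231 ± 10.7 TPM (SD, n = 3 each). CDH1 fell by 0.80 ± 0.06 on the log2 scale (SE, 95% interval -0.93 to -0.68, limma adjusted p = 1.06e-05). At this lower level CDH1 was still among the higher transcripts: 89.2% of listed genes had a lower mean with CRC-MPS CM, against 95.2% in control cells.

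MMP14 had 0.9413, 0.764 and 0.9185 TPM with CRC-MPS CM, against 5.885, 5.236 and 5.286 TPM in control cells. The groups lay far apart, with means of 0.875 ± 0.0964 TPM and 5.47 ± 0.361 TPM (SD, n = 3 each), a 6.25-fold lower level with CM. The log2 difference was -1.79 ± 0.10 (SE, 95% interval -2.01 to -1.56, limma adjusted p = 4.89e-06), in place 151 by size among 10019 genes.

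ESC CM was compared with control in the same way, and these values share the control libraries with the comparison before. CDH1 and MMP14 fell, and SNAI1, ESRP1 and ZEB1 were not called. Of the 8 genes, 5 were listed and 2 called, both lower, where 37.8% of the 10007 listed genes were called, 17.6% higher and 20.2% lower.

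CDH1 had 132.6, 127.5 and 119.1 TPM with ESC CM, against 217, 237.5 and 235.2 TPM in control cells. The groups did not overlap, as in 90.6% of listed genes, and the ESC CM mean of 126 ± 6.80 TPM was 0.550 times the control mean of 230 ± 11.2 TPM (SD, n = 3 each). CDH1 fell by 0.86 ± 0.06 on the log2 scale (SE, 95% interval -0.99 to -0.73, limma adjusted p = 9.88e-06). MMP14 had 1.216, 1.191 and 1.311 TPM with ESC CM, against 5.842, 5.222 and 5.276 TPM in control cells. All 3 libraries with CM were lower, with means of 1.24 ± 0.0634 TPM and 5.45 ± 0.343 TPM (SD, n = 3 each), a 4.40-fold lower level. The log2 difference of MMP14 was -1.52 ± 0.09 (SE, 95% interval -1.73 to -1.32, limma adjusted p = 7.09e-06).

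SNAI1 had 1.405, 1.199 and 1.364 TPM with ESC CM, against 1.521, 2.068 and 3.057 TPM in control cells. The highest ESC CM library lay just under the lowest control library, and the means were 1.32 ± 0.109 TPM and 2.22 ± 0.779 TPM (SD, n = 3 each). The log2 difference of -0.44 ± 0.16 (SE, 95% interval -0.82 to -0.07) was not called (limma adjusted p = 0.0595). Without control replicate 1 it was -0.60 and called (adjusted p = 0.0106), and without control replicate 3 it was -0.26 (adjusted p = 0.141).

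ESRP1 had 119.6, 106.4 and 109.9 TPM with ESC CM, against 115.4, 130.4 and 133.4 TPM in control cells, with overlap. Its log2 difference of -0.17 ± 0.07 (SE, 95% interval -0.33 to -0.01) was not called (limma adjusted p = 0.0803). ZEB1 had 0.4748, 0.0595 and 0.3454 TPM with ESC CM, against 0.2577, 0.4936 and 0.6398 TPM in control cells. These overlapping values gave a log2 difference of -0.18 ± 0.15 (SE, 95% interval -0.52 to 0.15, limma adjusted p = 0.508), at an authors' mean normalized count of only 18.6. The interval leaves room for a fall or a small rise.

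**Figure D2:**
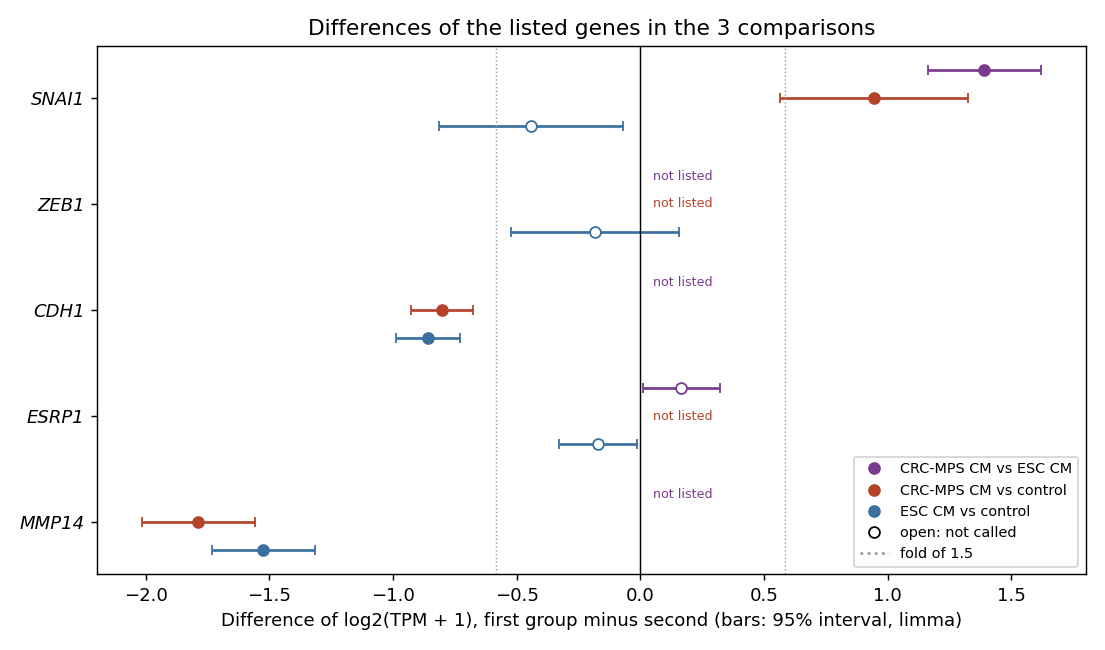
Differences of log2(TPM + 1) (horizontal axis, first-named group minus second) of the 5 listed genes, with limma's 95% intervals from 3 libraries per group. Filled points were called, open points were not, and dotted lines mark a fold of 1.5. SNAI1 lies at 1.39 and 0.94 for CRC-MPS CM and at -0.44 for ESC CM against control, while CDH1 and MMP14 lie left of -0.58 with both CM.

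Markers of the cells were read beside these results. HT29 epithelial markers were abundant, with summed levels of 9223 to 10690 TPM over the 9 listed genes with CRC-MPS CM, against 12860 to 14210 TPM in control cells. Of the 10 markers, 5 were called lower with both CM (CDX2, CDH17, KRT19, KRT20 and LGALS4), and CDX1 was called higher with ESC CM. EPCAM stood at 1.245 times the control mean in CRC-MPS CM cells and at 1.211 times in ESC CM cells. It did not overlap control and was not called, while 7 of the 9 listed markers were lower without overlap in each comparison. Lack of overlap, in either direction, was common over all listed genes: 89.4% (CRC-MPS CM against control) or 90.6% (ESC CM against control). Among all listed genes, 20.2% were called lower in each comparison with control. Called higher were 20.4% for CRC-MPS CM, against 17.6% for ESC CM. All 8 cycling genes rose with both CM: their sum was 1074 to 1146 TPM with CRC-MPS CM, against 356.9 to 448.9 TPM in control cells, and 1080 to 1130 TPM with ESC CM, against 356.6 to 448.3 TPM. Of 7 adipocyte genes, PLIN4 and CIDEC were listed against control and fell with both CM (summed 2.912 to 3.379 TPM with CRC-MPS CM and 8.312 to 12.04 TPM in control cells), and the defining genes ADIPOQ and LEP were not listed. Of 9 stromal genes 2 were listed with CRC-MPS CM against control, COL1A1 and FBN1, summing to 0.8128 to 2.002 TPM with CM and 1.291 to 2.735 TPM in control cells, and none was called. Of 7 leukocyte genes 3 were listed there: CD68 fell, CD163 rose to 0.3088, 1.555 and 1.554 TPM with CRC-MPS CM, against 0.03607, 0.2527 and 0.2016 TPM in control cells, and LYZ was not called. CD163 was near the floor, with an authors' mean normalized count of only 3.64 over these 6 libraries. It was not called without control replicate 1, CRC-MPS CM replicate 2 or CRC-MPS CM replicate 3. The part of cell division in the differences of SNAI1, CDH1 and MMP14 was not tested.

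Of 15 other EMT transcription factors, 6 were listed with CRC-MPS CM against control and 3 were called, all lower, where 20.4% of all listed genes were called higher and 20.2% lower. With so few listed, the absence of a higher call is not read as a result about the list. SNAI3, a relative of SNAI1, had 0.1957, 0.2895 and 0.364 TPM with CRC-MPS CM, against 1.825, 1.045 and 1.226 TPM in control cells. FOXC1, a forkhead factor, averaged 6.41 ± 0.155 TPM with CRC-MPS CM and 10.6 ± 0.76 TPM in control cells (SD, n = 3 each). KLF8, a Krüppel-like factor, averaged 1.06 ± 0.0266 TPM and 2.12 ± 0.154 TPM in the same order. For ESC CM against control 5 were listed, with 17.6% called higher and 20.2% lower over all listed genes, and SNAI3, FOXC1 and KLF8 were again called lower. The listed members had a median log2 difference of -0.57 for CRC-MPS CM and -0.63 for ESC CM, against -0.014 and -0.051 over all listed genes. All 3 calls were lost with a pseudocount of 5 TPM in both comparisons. KLF8 was also not called without control replicate 3 in either comparison or without ESC CM replicate 1, and SNAI3 was not called without control replicate 1 against ESC CM.

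Epithelial transcription factors were called in both directions. With CRC-MPS CM against control, 11 of 15 were listed, 1 was called higher and 4 lower, a share near the 40.6% called over all listed genes. EHF, an epithelial ETS factor, averaged 225 ± 12.1 TPM with CRC-MPS CM and 127 ± 7.66 TPM in control cells (SD, n = 3 each). CDX2, the intestinal homeobox factor, averaged 2.95 ± 0.327 TPM and 10.9 ± 1.22 TPM in the same order, with a log2 difference of -1.59. FOXA2 and HNF4A fell as well. HNF4A was not called without control replicates 1 or 2 or CRC-MPS CM replicates 2 or 3. With ESC CM against control, 14 of 15 were listed, 3 were called higher (EHF, OVOL2 and CDX1) and 4 lower (CDX2, KLF4 and FOXA2 among them), where 37.8% of all listed genes were called. OVOL2, a repressor of mesenchymal genes, averaged 10.3 ± 0.695 TPM with ESC CM and 6.04 ± 0.344 TPM in control cells. KLF4, a factor of differentiated epithelium, averaged 7.91 ± 1.48 TPM with ESC CM and 21.2 ± 3.54 TPM in control cells. CDX1 was not called without control replicate 2, and FOXA2 was not called without control replicate 1 or ESC CM replicates 2 or 3.

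Genes that work with E-cadherin at cell contacts were described next. With CRC-MPS CM against control, 14 of 20 genes of cadherin adhesion were listed and 2 were called, both lower, against 40.6% called over all listed genes. JUP, which codes for plakoglobin, averaged 257 ± 22 TPM with CRC-MPS CM and 456 ± 34.7 TPM in control cells, a log2 difference of -0.83. CDH17, the liver-intestine cadherin, averaged 1.59 ± 0.134 TPM with CRC-MPS CM and 5.13 ± 1.33 TPM in control cells. In ESC CM cells against control 19 of 20 were listed and 3 were called, against 37.8% over all listed genes: JUP, CDH17 and NECTIN4 fell. NECTIN4, an adhesion molecule, averaged 7.37 ± 0.639 TPM with ESC CM and 12.9 ± 0.551 TPM in control cells. Medians over the listed genes were -0.25 for CRC-MPS CM and -0.33 for ESC CM, both against control. Of 14 epithelial proteases, polarity and trafficking genes, 12 were listed with CRC-MPS CM against control and 2 called, against 40.6% over all listed genes. With ESC CM against control 10 were listed and 1 called, against 37.8% over all listed genes. PRSS8, the membrane serine protease prostasin, fell with both CM: it averaged 58 ± 4.4 TPM with CRC-MPS CM and 126 ± 8.67 TPM in control cells, and 62.6 ± 3.58 TPM with ESC CM and 126 ± 8.74 TPM in control cells. ERBB3, a receptor of the EGFR family, fell with CRC-MPS CM to 84.2 ± 3.84 TPM, against 137 ± 4.84 TPM in control cells.

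Mesenchymal markers were called in both directions. With CRC-MPS CM against control 10 of 27 were listed, 2 were called higher and 1 lower, against 20.4% and 20.2% over all listed genes. TNC averaged 5.29 ± 0.443 TPM with CRC-MPS CM and 1.38 ± 0.563 TPM in control cells, a log2 difference of 1.43. THBS1, which codes for the matrix protein thrombospondin, averaged 5.76 ± 0.422 TPM with CRC-MPS CM and 3.37 ± 0.623 TPM in control cells, and was not called without control replicate 1. TGM2, a protein-crosslinking transglutaminase, averaged 125 ± 5.19 TPM with CRC-MPS CM and 263 ± 3.75 TPM in control cells. For ESC CM against control 9 of 27 were listed, 2 were called lower and 1 higher, against 20.2% and 17.6% over all listed genes. TGM2 was among those lower, with 128 ± 4.49 TPM with ESC CM and 262 ± 4.25 TPM in control cells. MYL9, a myosin light chain, was called higher at 1.10 ± 0.239 TPM with ESC CM and 0.275 ± 0.153 TPM in control cells.

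Other metalloproteinases and inhibitors were called in both directions. With CRC-MPS CM against control, 12 of 24 were listed, 2 were called higher and 5 lower, against 20.4% higher and 20.2% lower over all listed genes. TIMP2, which bridges MMP14 and the proenzyme of MMP2, averaged 23.1 ± 1.41 TPM with CRC-MPS CM and 51.8 ± 5.17 TPM in control cells. MMP2, the substrate of that complex, was close to the lower end of the scale with 0.0333, 0.09862 and 0.06738 TPM with CRC-MPS CM, against 1.206, 0.663 and 0.8511 TPM in control cells, and was not called with a pseudocount of 5 TPM. MMP11 averaged 0.392 ± 0.0145 TPM with CRC-MPS CM and 1.82 ± 0.706 TPM in control cells, and MMP24 and MMP10 fell as well, of which MMP10 was not called without control replicate 2. MMP7, an epithelial matrilysin, rose to 232 ± 21.4 TPM with CRC-MPS CM, against 139 ± 21 TPM in control cells, and ADAM9 rose to 84.8 ± 8.88 TPM, against 52.9 ± 1.8 TPM. With ESC CM against control 10 of 24 were listed, MMP2 not among them, and 2 were called (37.8% over all listed genes): TIMP2 and MMP11 fell, TIMP2 with 18.6 ± 2.48 TPM with ESC CM and 51.5 ± 5.09 TPM in control cells.

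Of 27 genes that act on the Snail protein or with it, 20 were listed with CRC-MPS CM against control, 7 were called higher and 0 lower, while 40.6% of all listed genes were called and 20.4% were higher. Without overlap of the groups, 12 of the listed genes were higher and 6 lower, and none of these 6 was called. Over all listed genes, 89.4% did not overlap. PSMD14, a proteasomal deubiquitinase, averaged 152 ± 5.39 TPM with CRC-MPS CM and 75.2 ± 3.23 TPM in control cells, a log2 difference of 1.01. SUZ12 and EZH2, subunits of Polycomb repressive complex 2, averaged 89.5 ± 9.47 and 75.4 ± 6.12 TPM with CRC-MPS CM, against 51.3 ± 5.13 and 43.8 ± 0.801 TPM in control cells. HDAC2, a histone deacetylase, averaged 260 ± 12.9 TPM with CRC-MPS CM and 159 ± 12.8 TPM in control cells. KDM1A, FBXO45 and WTIP were the remaining calls. WTIP was not called without CRC-MPS CM replicate 1 or control replicates 1 or 3, and FBXO45 was not called without CRC-MPS CM replicates 2 or 3 or control replicate 2. With ESC CM against control 20 were listed and 5 called higher (PSMD14, EZH2, KDM1A, SUZ12 and HDAC2), where 17.6% of all listed genes were called higher. HDAC2 was not called without control replicate 2. The listed genes' median log2 difference was 0.22 for CRC-MPS CM and 0.17 for ESC CM against control, and the cycling genes given above were higher in the same libraries. Of 13 splicing factors and ESRP targets, control cells were compared for 7 in the CRC-MPS CM table and for 10 in the ESC CM table, and none was called.

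The list of 19 genes of TGF-beta signaling and other regulators of SNAI1 holds genes that restrain the pathway or EMT (SMAD7, SKIL and FOXO3 among them) as well as inducers, so its calls have no common direction of action. With CRC-MPS CM against control 14 were listed, 2 called higher and 4 lower, a share near the 40.6% called over all listed genes. TGFB1, the ligand best known as an inducer of EMT, averaged 9.66 ± 2 TPM with CRC-MPS CM and 23.5 ± 3.97 TPM in control cells, a log2 difference of -1.21. EGR1, an immediate early factor, averaged 12.2 ± 0.867 TPM with CRC-MPS CM and 23.4 ± 6.91 TPM in control cells. HIF1A, the hypoxia-inducible factor, was higher with 92.2 ± 2.6 TPM with CRC-MPS CM and 51.9 ± 1.55 TPM in control cells, as was the ligand TGFB2 with 9.78 ± 1.16 TPM and 5.86 ± 1.39 TPM in the same order. FOXO4 and FOXO3, forkhead factors, were the other calls in the lower direction. FOXO3 was not called without CRC-MPS CM replicate 1 or control replicate 3, TGFB2 without CRC-MPS CM replicate 3 or control replicate 3, and FOXO4 without CRC-MPS CM replicate 2. With ESC CM against control 12 were listed and 5 called, all lower (EGR1, TGFB1, FOXO3, SMAD3 and SMAD7), where 37.8% of all listed genes were called and 20.2% were lower. SMAD3 transmits the TGF-beta signal and SMAD7 inhibits it. SMAD7 was not called without ESC CM replicates 1 or 3 or control replicate 2, and SMAD3 was not called without ESC CM replicate 3. TGFB1 averaged 11.4 ± 0.425 TPM with ESC CM and 23.5 ± 4.03 TPM in control cells.

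**Figure D3:**
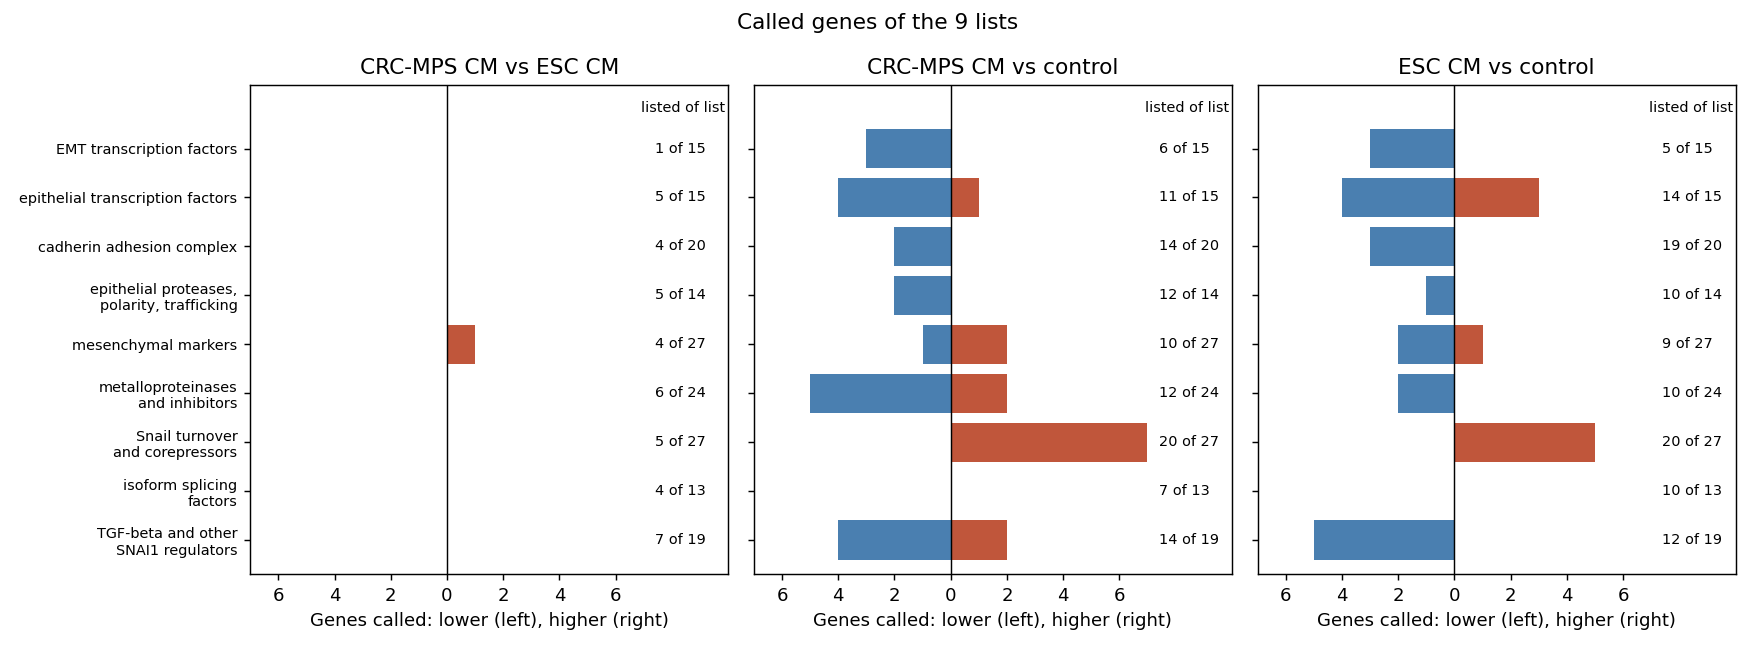
Number of genes called lower (bars to the left) and higher (bars to the right) in 9 lists of related genes, for each comparison. Beside the bars stands how many genes of the list the table holds. Between both CM only 1 gene of these lists was called, against up to 7 per direction in a list against control. This contrast is not particular to the lists. Of all listed genes, 1.41% were called between both CM, while the comparisons with control had 40.6% (CRC-MPS CM) or 37.8% (ESC CM) called.

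SNAI1 and CDH1 were also set against 8815 genes with a value in all 9 libraries and a mean of at least 1 TPM, by Pearson's correlation of log2(TPM + 1). These correlations are descriptions over 3 groups of 3 libraries, and they carry the differences between groups. The genes most like SNAI1 were DRAM1 (0.9534), CHRD (0.948), CCPG1 (0.9453), NNMT (0.9442) and CXorf38 (0.9423). CHRD, a secreted antagonist of bone morphogenetic proteins, averaged 5.948 TPM with CRC-MPS CM, 2.24 TPM with ESC CM and 2.621 TPM in control cells. NNMT, a nicotinamide methyltransferase, averaged 101.7 TPM with CRC-MPS CM, 71.33 TPM with ESC CM and 81.74 TPM in control cells. SNAI1 had a correlation of -0.1134 with CDH1, -0.3255 with MMP14 and 0.5836 with ESRP1. That of CDH1 with ESRP1 was 0.4712. Among the genes most like CDH1 were HLA-E (0.9983), TRIM8 (0.9973), GOLT1A (0.9972) and TRIB1 (0.9968), and CDH1 and MMP14 had a correlation of 0.965. TRIB1, a pseudokinase, averaged 131.9 TPM with CRC-MPS CM, 119.2 TPM with ESC CM and 291.5 TPM in control cells.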

How the data were processed

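RNA of 9 HT29 libraries was analysed from 3 tables of pairwise comparisons. Tools in the submitters' notes are kallisto 0.46.0, STAR 2.6.1d and DESeq2, with build hg38, and the sources used here do not give their order. The deposited values per library fit TPM summed per gene, although the tables name no unit. The authors' mean normalized count is a deposited signal per gene over 6 libraries. The deposited p-value of the authors was read only to check that every listed gene was under 0.05. Their log2 fold change, its standard error, test statistic and adjusted p-value were not used. Read totals were not used here, so depth is unknown, and 631 rows without a gene name in the ESC CM against control table could be matched to no symbol. Spreadsheet dates stood in place of 4, 14 and 13 gene names.

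Each table was fitted on its own with limma 3.58.1 (R 4.3.3) on log2(TPM + 1), with a trend in the prior variance. Because the tables are preselected, limma's p-values were adjusted by Benjamini-Hochberg over 20000 genes, where unlisted genes counted as not different. Since the tables hold selected genes, the prior variance rests on them alone. An exact permutation test of 3 against 3 libraries cannot go below p = 0.1 and was not used. Genes were called at adjusted p under 0.05 and a fold over 1.5. Alternatives were pseudocounts of 0.1 and 5, a mean of at least 1 TPM, adjustment over listed genes, other thresholds, a constant prior variance, leaving out each library, a block for the replicate number, and medians for means.

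The 8 genes and the lists were chosen with earlier results of these data known. Named were the 8 genes, up to 4 called genes per list and comparison with the largest log2 difference, and the 5 genes most like SNAI1 or CDH1. Where a count was small, its other genes were named after their values were seen. Some genes that this rule selects are not reported here. Positions came from GENCODE 29 and promoters from RefSeq. Python 3.11.15 and pandas 2.3.3 were used.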

Additional observations from a re-analysis of the deposited data

How the results depend on the processing

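Depth is unknown, unlisted genes have no values, and 3 libraries per group limit every interval. No difference of the 8 genes turned its direction under the alternatives run. Genes called between CRC-MPS CM and ESC CM numbered 40, and 20 with a pseudocount of 5, 157 when adjusted over listed genes only, 1 at a log2 difference over 1.5 and adjusted p under 0.001, and 9 to 153 when a library was left out (153 without CRC-MPS CM replicate 1, 9 without ESC CM replicate 2). SNAI1 was called in each of these fits but the strict one, with adjusted p from 0.00786 to 0.0236 when a library was left out. Those strict thresholds left 0 of the 8 genes between both CM, 1 with CRC-MPS CM against control (MMP14) and 1 with ESC CM against control (MMP14). Against control, genes called with CRC-MPS CM numbered 4068, and 2390 with a pseudocount of 5, 8316 with no minimum fold and 307 at the strict thresholds. With ESC CM they numbered 3780, and 2212, 8452 and 273 in the same order. With a pseudocount of 5, 17 of 50 called genes of the lists lost their call for CRC-MPS CM against control (CD163, CIDEC, FBXO45, FOXA2, FOXC1, FOXO3, FOXO4, HNF4A, KLF8, MMP10, MMP11, MMP2, MMP24, SNAI3, TGFB2, THBS1 and WTIP) and 13 of 43 for ESC CM against control (among them CDX1, CIDEC, FOXA2, FOXC1, KLF8, MMP11, MYL9, NECTIN4, OVOL2, SMAD7 and SNAI3). Same-numbered libraries showed no strong shared deviation (correlations -0.3562 to 0.179), and the main fit did not pair them. With 3 libraries per group, this cannot exclude a shared origin of libraries with the same number. With the replicate block no called gene of the lists and none of the 8 genes changed its call, and 20 genes were called between both CM (16 of them among the 40), 4081 for CRC-MPS CM and 3783 for ESC CM against control.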
